A study of Mus musculus with 12 samples.

Results

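The glutathione transferase genes described here are Mgst1, Mgst2, Mgst3, Gsta3, Gsta4, Gstm1, Gstm2, Gstp1, Gstt1 and Gsto1, compared between Ftz-F1 transgenic mice and their wild-type littermates in RNA of the adrenal gland. The 10 genes were taken by symbol from the platform's probe annotation, and each had 1 probe among the 25344 on the array. Of these genes, 9 had a value on all 12 arrays and were tested among 21513 features, which included 17882 named genes. The other, Mgst2, lacked an array in each of 2 pairs and is described without a test. The family was chosen by earlier results of the same arrays, namely the ratios of Mgst1 at 4 months and of Mgst3 at both ages, so those values are given as descriptions with no test.

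Each transgenic mouse of line #56, labelled YAC, was compared on 2-colour arrays with a wild-type (WT) littermate matched for age and sex. Pairs 1, 3 and 5 were 4 months old and the transgenic mouse carried 2 transgene copies, whereas pairs 11, 13 and 15 were 10 days old and it carried 1 copy. Pairs 5 and 15 were female and the others male, pairs are named by the number of the transgenic mouse, and the 2 arrays of a pair had the dyes exchanged. The transgenic mice came from a single line, and the sources used here state neither the strain nor the promoter of the transgene. Age and copy number change together, so their parts in a difference between the ages cannot be told apart.

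Glutathione transferases join the tripeptide glutathione to electrophilic compounds, which makes them more soluble and easier to export. The microsomal members are membrane proteins of the MAPEG family and also act on lipid hydroperoxides or leukotrienes, whereas the cytosolic members are soluble dimers sorted into the classes alpha, mu, pi, theta and omega. The adrenal cortex makes steroids with mitochondrial and microsomal cytochromes, a process that yields reactive oxygen species, and glutathione enzymes are part of its known defence.

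All values below are log2 ratios of the 2 channels after removal of the dye trend of each array, averaged over both arrays of a pair. Signs are as deposited, because no source used here says whether transgenic was divided by WT or WT by transgenic. A positive and a negative ratio therefore mark opposite differences between transgenic and WT mice, without saying which mouse had more transcript. Nr5a1, the mouse gene for SF-1 and the gene that the transgene carries, had ratios of -0.46, 0.11 and -0.22 in the pairs of 4 months and of -0.57, -0.65 and -0.79 in the pairs of 10 days. Its ratio was negative in 5 of 6 pairs, and its mean over all pairs was -0.43 (SE 0.09, limma with Benjamini-Hochberg adjustment, adjusted p = 0.104). Empty spots made up 4.30% to 6.59% of each array, the level of background is not known, and precision is limited by how few arrays there are. Of the adrenal markers, 9 of 10 for the steroidogenic cortex and 14 of 16 for chromaffin cells were measured, and their ratios are given below. In a whole gland, fewer cells of a type and less RNA per cell cannot be told apart.

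None of the 9 tested glutathione transferases passed the threshold of 0.05 for the adjusted p in limma, at either age, over all 6 pairs, between the ages or between the sexes. The background was equally low, since 0.0558% of all features passed over all 6 pairs and 0% passed at 4 months, at 10 days, between the ages and between the sexes. The fits of Mgst1 and Mgst3 at the ages, over all pairs and between the ages are not read as tests. At an unadjusted p under 0.05, and with Mgst1 and Mgst3 left out since their ratios chose the family, 3 of 7 members passed over all 6 pairs, against 15% of all features. They were Gsto1, Gsta4 and Gstm2. The same 3 passed at 4 months, against 12.3% of all features, and at 10 days, against 8.34%, and 0 of 7 passed for 4 months minus 10 days, against 4.56%. The median of the 9 members over all 6 pairs was -0.05, against -0.01 for all features. The family thus had no common sign, and 4 members, Gsto1, Mgst1, Gsta4 and Gstm2, kept 1 sign in 6 of 6 pairs, as did 10.4% of all features. Gsto1 and Mgst1 were negative in every pair, as were 4.75% of all features, and Gsta4 and Gstm2 positive in every pair, as were 5.67%. The ratios of Mgst1 at 4 months helped to choose the family, so its place in these counts is a description. No member kept its sign on all 12 arrays. For Mgst1 the exception was the Cy3 array of pair 15, at 0.08, whose limits are described below.

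**Figure D1:**
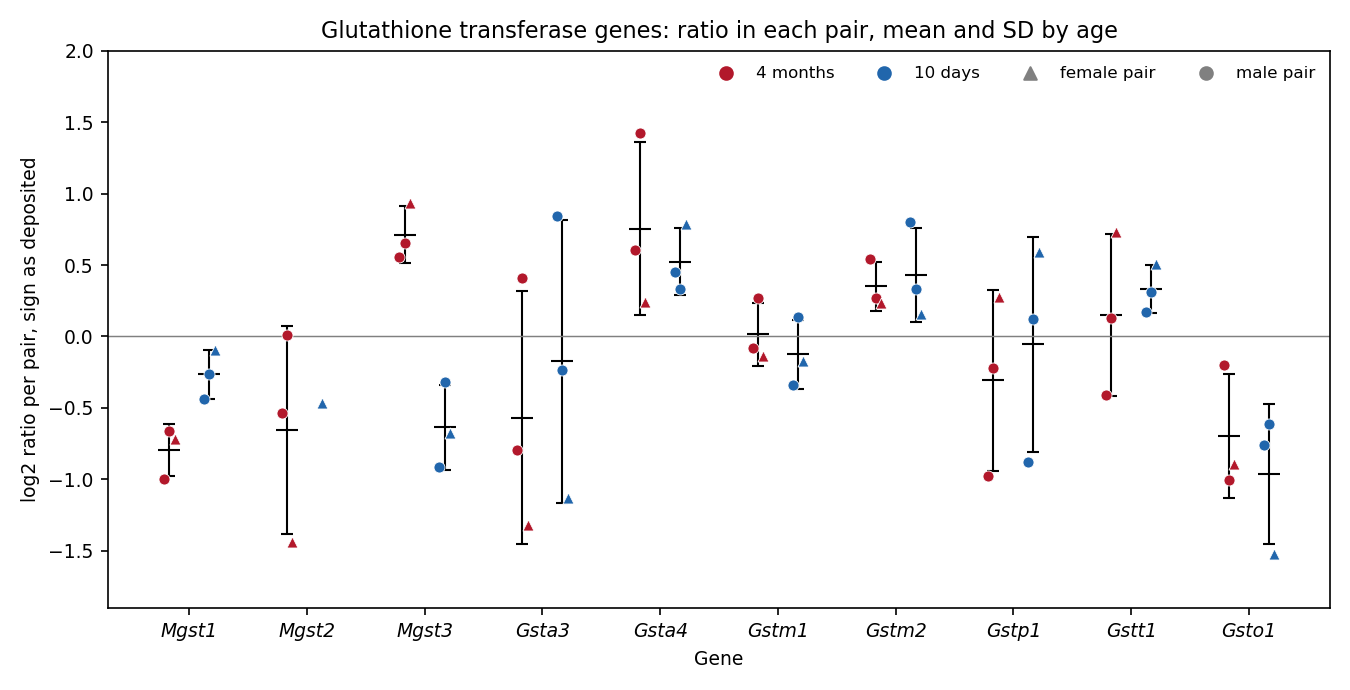
Log2 ratio (y axis, sign as deposited) of each glutathione transferase gene (x axis) in each pair, with 4 months left of 10 days, females as triangles and the mean with SD as black bars. Mgst1 and Gsto1 lie below 0 in all pairs, Gsta4 and Gstm2 above 0, and Mgst3 lies above 0 at 4 months and below 0 at 10 days.

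Gsto1 encodes the omega-class enzyme, which reduces dehydroascorbate and removes glutathione from proteins. Its ratios were -0.20, -1.00 and -0.89 in pairs 1, 3 and 5 at 4 months and -0.76, -0.61 and -1.52 in pairs 11, 13 and 15 at 10 days. Pair 1 was nearest to 0 and pair 15 lowest, and the ages overlapped. The mean was -0.70 ± 0.43 at 4 months and -0.96 ± 0.49 at 10 days (SD, n = 3 each). Over all 6 pairs it was -0.83 (SE 0.15, limma adjusted p = 0.0882), negative on 11 of 12 arrays. The exception was the Cy3 array of pair 1, at 0.07, where a Cy3 or Cy5 array is named by the dye of the transgenic mouse. The difference of 4 months minus 10 days was 0.26 (95% interval -0.42 to 0.95, limma adjusted p = 0.946), an interval that holds differences of either sign.

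Gsta4 encodes an alpha-class enzyme that conjugates hydroxynonenal, a product of lipid peroxidation. It had ratios of 0.60, 1.42 and 0.24 in the pairs of 4 months and of 0.45, 0.33 and 0.79 in the pairs of 10 days. All were positive, pair 3 was highest, and the ages overlapped. Gsta4 averaged 0.76 ± 0.61 at 4 months and 0.52 ± 0.24 at 10 days (SD, n = 3 each), and 0.64 over all pairs (SE 0.15, limma adjusted p = 0.125). It was positive on 11 of 12 arrays, the exception being the Cy5 array of pair 5, at -0.14. Without pair 3 its mean at 4 months was 0.42. The recovered signal of its probe was at least 475 scanner units, on a scale that ends at 65535. It is a lower bound because readings are recovered only up to a common factor, so whether the probe is dim is not known.

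Gstm2, of the mu class, was also positive in every pair, with ratios of 0.55, 0.27 and 0.23 at 4 months and of 0.80, 0.33 and 0.16 at 10 days. The male pairs 1 and 11 were highest and the ages overlapped. Its mean was 0.35 ± 0.17 at 4 months and 0.43 ± 0.33 at 10 days (SD, n = 3 each). Over all pairs Gstm2 stood at 0.39 (SE 0.10, limma adjusted p = 0.150), and 10 of 12 arrays were positive. Without pair 11 its mean at 10 days was 0.25. The other mu-class member, Gstm1, had ratios of -0.08, 0.27 and -0.14 at 4 months and of -0.34, 0.14 and -0.17 at 10 days. Its signs were mixed at both ages, its mean over all pairs was -0.05 (95% interval -0.27 to 0.16), and it had the narrowest range of the 9 members, 0.61 between its lowest and highest pair. Its recovered signal was at least 355 scanner units, again a lower bound.

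Mgst1 encodes an enzyme of the endoplasmic reticulum and outer mitochondrial membrane that conjugates glutathione and reduces lipid hydroperoxides. Its ratios were -1.00, -0.66 and -0.72 in pairs 1, 3 and 5 at 4 months and -0.44, -0.26 and -0.09 in pairs 11, 13 and 15 at 10 days. All 6 were negative, and every pair of 4 months lay below every pair of 10 days, as it did for 5.33% of all features. Mgst1 averaged -0.79 ± 0.18 at 4 months and -0.27 ± 0.17 at 10 days (SD, n = 3 each). Each ratio at 10 days averages in a Cy3 array whose reading is limited, as described below.

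The distance between the ages for Mgst1 lay on the Cy3 arrays. There the ratios were -1.38, -1.06 and -1.09 at 4 months and -0.35, -0.39 and 0.08 at 10 days, a difference of means of -0.96. These 10-day arrays had a channel at the scanner limit or a deposited ratio of exactly 1, as described below. On the Cy5 arrays they were -0.62, -0.26 and -0.35 at 4 months and -0.53, -0.14 and -0.27 at 10 days, and the difference of means was -0.10. The ages overlapped on the Cy5 arrays and did not overlap on the Cy3 arrays, as was so for 12.7% of all features. No member other than Mgst1 had separate ages on the Cy3 arrays, and none other than Mgst3 on the Cy5 arrays, where 11.5% of all features did.

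The spot of Mgst1 also reached the limit of the scanner. The 6 Cy3 arrays were stored at full precision, and 2 raised to each of their values gave a quotient of whole numbers that did not exceed 65535, so the channel readings could be recovered up to a common factor. For Mgst1 they were 14343 over 29473 in pair 1, 9175 over 11746 in pair 3 and 18731 over 32994 in pair 5, all at 4 months. At 10 days the reading of pair 13 was 52433 over 65535, with a channel at the highest value it can take. The deposited ratios of pairs 11 and 15 were exactly 1, a value that 2 channels at the limit would also give. The values of -0.35 and 0.08 given above for the Cy3 arrays of pairs 11 and 15 are therefore the dye correction alone. Of the 24060 to 24253 spots with a value on such an array, 3 to 36 had a channel at 65535 and 27 to 100 had a ratio of exactly 1. Without such spots no pair of 10 days keeps both arrays for Mgst1, and its age difference cannot then be computed. The part of the scanner limit in the distance between the ages was not tested. No other member was at the limit on any of these arrays, and the Cy5 arrays, stored with fewer digits, could not be read this way.

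Mgst3 encodes a microsomal enzyme with leukotriene synthase and glutathione peroxidase activity. It had ratios of 0.55, 0.65 and 0.93 in pairs 1, 3 and 5 at 4 months and of -0.91, -0.32 and -0.67 in pairs 11, 13 and 15 at 10 days. All pairs of 4 months were positive and all pairs of 10 days negative, a split that 2.63% of all features showed, and 5.06% had all pairs of 4 months above all pairs of 10 days. Mgst3 averaged 0.71 ± 0.20 at 4 months and -0.64 ± 0.30 at 10 days (SD, n = 3 each), a difference of 1.35 (SE 0.19). Its mean over all 6 pairs, which averages these opposite signs, was 0.04. The Cy3 array of pair 1 gave -0.20 and its Cy5 array 1.31, so these 2 arrays differed in sign. The other 10 arrays each had the sign of their age group.

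Mgst2, which can form leukotrienes from glutathione, had ratios of -0.53, 0.01 and -1.44 in pairs 1, 3 and 5 at 4 months and of -0.46 in pair 15 at 10 days. In pair 11 only the Cy3 array had a value, -0.84, and in pair 13 only the Cy5 array, 0.35. The female pair 5 was lowest and pair 3 was near 0. With these lone arrays kept, as an alternative, the mean of Mgst2 was -0.65 at 4 months and -0.32 at 10 days.

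**Figure D2:**
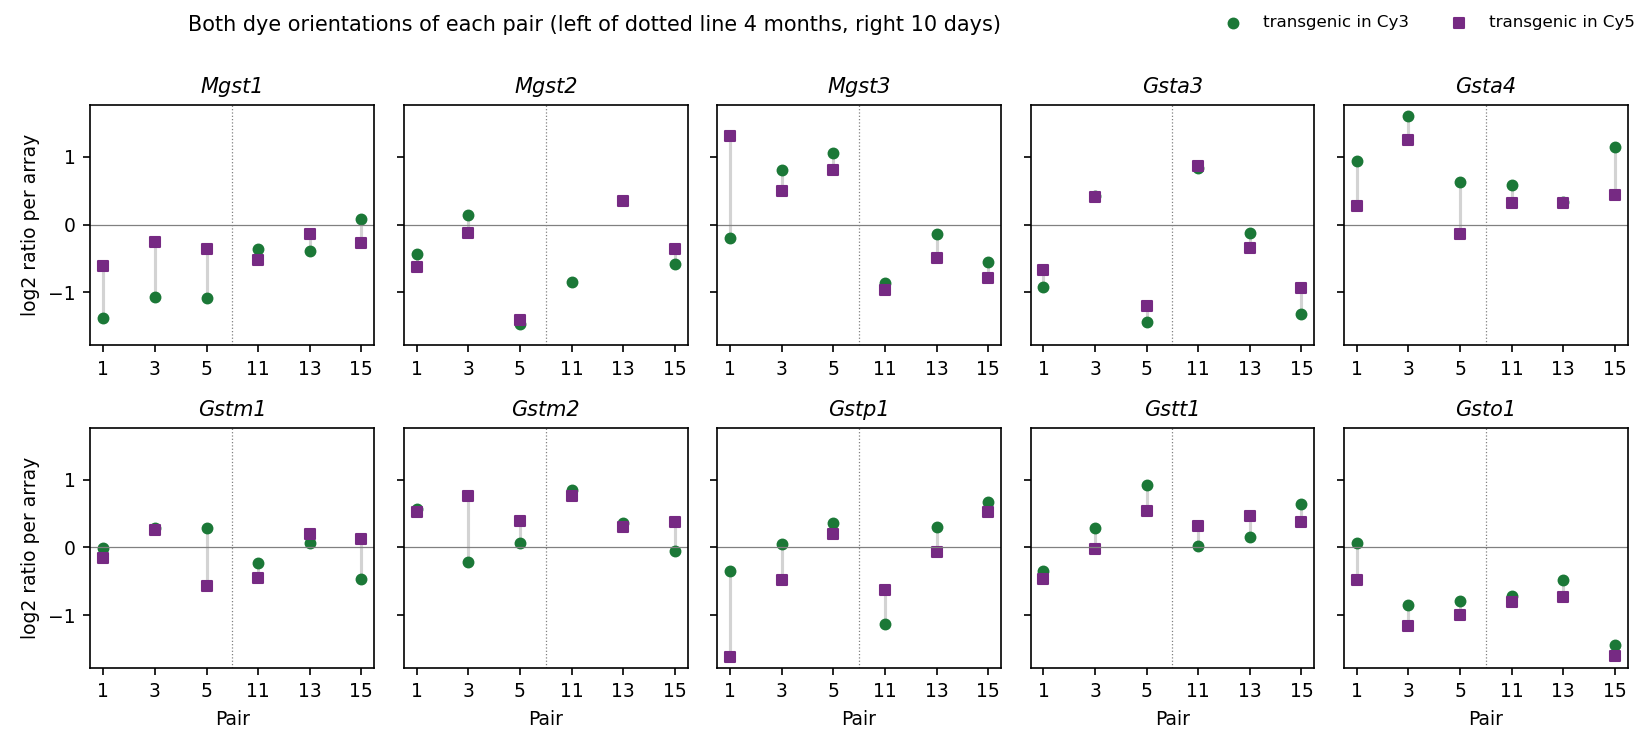
Log2 ratio (y axis) on both arrays of each pair (x axis), with the transgenic sample in Cy3 as green circles and in Cy5 as purple squares, and grey lines joining the arrays of a pair. For Mgst1 the circles of pairs 1, 3 and 5 stand apart from all others at -1.38 to -1.06, and for Mgst3 the arrays of pair 1 lie on both sides of 0.

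The arrays of a pair differed by a median of 0.27 in the 9 members, against 0.33 in all features. A gap above 1 occurred in 2 of 54 member and pair combinations, which were Mgst3 and Gstp1 in pair 1, and in 7.54% of those of all features.

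Gsta3 is an alpha-class gene whose human counterpart also acts as a steroid isomerase. Its ratios were -0.79, 0.41 and -1.32 in pairs 1, 3 and 5 at 4 months and 0.84, -0.24 and -1.13 in pairs 11, 13 and 15 at 10 days. This was the widest range of the 9 members, 2.16, and both arrays of each pair had the same sign. The females 5 and 15 were lowest, the ages overlapped, and the mean over all pairs was -0.37 (95% interval -1.02 to 0.28, limma adjusted p = 0.574). That mean was -0.13 without pair 15, -0.18 without pair 5, -0.62 without pair 3 and -0.63 without pair 11.

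Gstp1, the pi-class member, had ratios of -0.98, -0.22 and 0.28 at 4 months and of -0.88, 0.12 and 0.59 at 10 days. The male pairs 1 and 11 were lowest and the female pair was highest at each age. Over all pairs it averaged -0.18 (95% interval -0.67 to 0.31). Gstt1, a theta-class member that acts on halogenated alkanes, had ratios of -0.41, 0.13 and 0.73 at 4 months and of 0.17, 0.31 and 0.51 at 10 days. It was positive in 5 of 6 pairs, again with the female pair highest at each age, and averaged 0.24 over all pairs (95% interval -0.08 to 0.56).

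**Figure D3:**
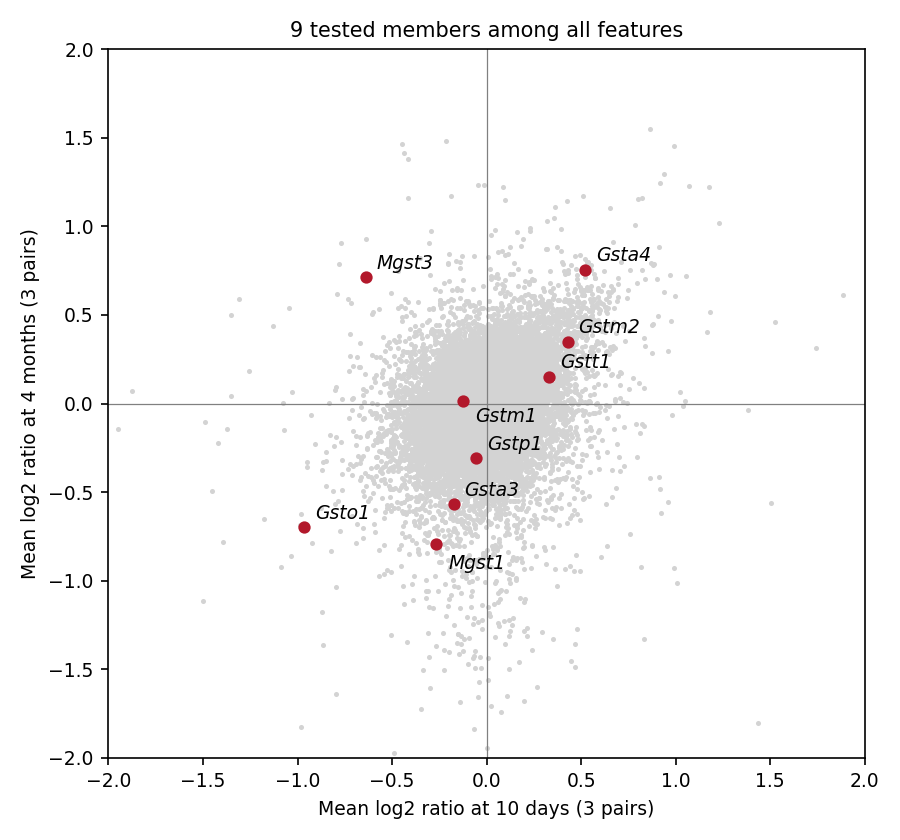
Mean log2 ratio at 4 months (y axis) against 10 days (x axis), 3 pairs each, for the 9 tested glutathione transferases (red) and all other features (grey), of which 14 lie outside the plotted range. Mgst3 lies in the upper left at 0.71 and -0.64, Gsto1 in the lower left at -0.70 and -0.96, and Gstm1 near the centre.

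Between the sexes, the female pairs lay outside the range of the male pairs for 4 of the 9 members, against 14.2% of all features. They were below the males for Gsta3 and Gstm2 and above them for Gstp1 and Gstt1. The choice of the family did not use sex. At an unadjusted p under 0.05, 3 of the 9 members passed, against 5.78% of all features. Gsta3 averaged -1.22 in the female and 0.06 in the male pairs, a difference of -1.28 (SE 0.40, 2 and 4 pairs, limma unadjusted p = 0.0154, adjusted p = 0.793). Gstp1 averaged 0.44 in the female and -0.49 in the male pairs, which differ by 0.92 (SE 0.32, limma unadjusted p = 0.0242, adjusted p = 0.810). Gstt1 averaged 0.62 in the female and 0.05 in the male pairs, which differ by 0.57 (SE 0.22, limma unadjusted p = 0.0387, adjusted p = 0.856). None passed after adjustment. For Gstm2 the means were 0.20 in the female and 0.49 in the male pairs. Since each age holds 1 female pair, the mouse and the sex cannot be told apart within an age.

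Cell type markers also differed between the mice of a pair. The 14 chromaffin cell markers had a positive median in every pair, at 0.29, 0.72 and 0.51 in pairs 1, 3 and 5 and 0.19, 0.38 and 0.65 in pairs 11, 13 and 15. Over all pairs their median was 0.34, and 2 of them passed, the neuropeptide gene Gal at 1.20 (SE 0.12, limma adjusted p = 0.0358) and the prohormone convertase gene Pcsk1 at 0.67 (SE 0.08, limma adjusted p = 0.0488). The list was not uniform: 11 of the 14 had a positive and 3 a negative mean over all pairs. The negative ones were Chga at -0.17, Snap25 at -0.06 and Chgb at -0.02. Gsta4 and Gstm2, like the median of these markers, were positive in every pair, as were 5.67% of all features. The median was highest in pair 3, where Gsta4 was highest, and lowest in pair 11, where Gstm2 was highest. The cortical markers had medians of -0.20, 0.69 and 0.15 in the pairs of 4 months and of -0.42, -0.13 and 0.20 in those of 10 days. Cyp21a1, a steroid hydroxylase, held the lowest value of the list, with -3.18 in pair 11 and -3.96 in pair 13. It was at -1.41, 1.64 and 0.75 in pairs 1, 3 and 5 and at 0.25 in pair 15. Of the 9 cortical markers, 1 was positive in pair 11 and 3 were positive in pair 13.

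The 12 lymphocyte markers had medians of -0.04, -1.86 and -0.13 at 4 months and of 0.08, 0.10 and 0.09 at 10 days. Their 4-month medians thus lay below the 10-day ones, but far below only in pair 3. Among single features, 10.4% had pairs of 4 months and 10 days that did not overlap. The macrophage markers had medians of -0.06, -1.20 and -0.47 at 4 months and of -0.11, -0.05 and 0.62 at 10 days, and these medians overlapped between the ages. For 4 months minus 10 days, 9 of 11 macrophage and 11 of 12 lymphocyte markers were negative. At an unadjusted p under 0.05 in limma, 5 and 3 of these passed, against 4.56% of all features, and 0 passed after adjustment. In pair 3, where both lists were lowest, Gsta4 had its highest ratio.

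Markers of other tissues stood out in single pairs. All 14 measured hepatocyte markers were positive in pair 11, with a median of 1.00 and Alb at 6.73, against medians of -0.03 to 0.28 in the other pairs. In that pair Gsta3 and Gstm2 had their highest ratios, at 0.84 and 0.80, Gstm1 its lowest, at -0.34, and Gstp1 stood at -0.88. In pair 15, 7 of 8 adipocyte markers were positive, with a median of 0.83 and Adipoq at 5.13, and Gsto1 had its lowest ratio. The 2 markers of the X-zone, a transient layer of the mouse cortex, had a median of -4.16 in pair 5, where Gsta3 and Mgst2 were lowest, but of 0.22 in pair 15, where Gsta3 was also low. The part of any of these cell type markers in the ratios was not tested. With pairs 11, 15 and 3 left out, a choice made after seeing the data, pairs 1 and 5 remain at 4 months and pair 13 alone at 10 days. The mean of pairs 1 and 5 was then -0.55 for Gsto1, 0.42 for Gsta4, 0.39 for Gstm2, -1.06 for Gsta3 and 0.74 for Mgst3. The single value of pair 13 was -0.61 for Gsto1, 0.33 for Gsta4, 0.33 for Gstm2, -0.24 for Gsta3 and -0.32 for Mgst3.

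**Figure D4:**
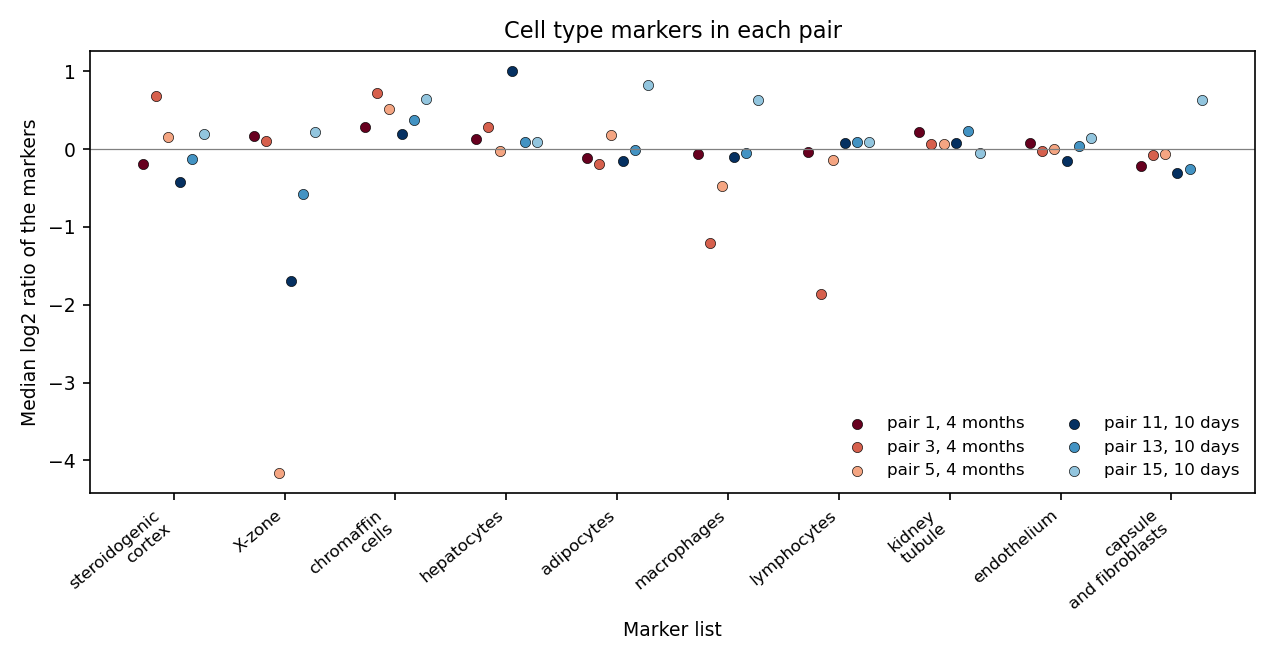
Median log2 ratio (y axis) of the measured markers of each cell type (x axis) in each pair, with 4 months in red and 10 days in blue shades. Pair 11 stands out for hepatocytes at 1.00, pair 3 for lymphocytes at -1.86, pair 5 for the X-zone at -4.16 and pair 15 for adipocytes at 0.83.

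Promoter sequences are shown for the 4 members whose ratios kept 1 sign or split by age and that have an entry, Mgst1, Gsto1, Gstm2 and Mgst3. Gsta4 has no entry among the sequences used here. RefSeq promoters of build GRCm38.p6, cut to the 250 bases before the start, were found for 9 of the 10 members. They lie at chr6:138140277-138140526 on the plus strand for Mgst1, chr19:47854723-47854972 on the plus strand for Gsto1, chr3:107986421-107986670 on the minus strand for Gstm2 and chr1:167393842-167394091 on the minus strand for Mgst3. Each is written 5′ to 3′ on the strand of its gene, and capitals mark a match to the antioxidant response element core.
Mgst1: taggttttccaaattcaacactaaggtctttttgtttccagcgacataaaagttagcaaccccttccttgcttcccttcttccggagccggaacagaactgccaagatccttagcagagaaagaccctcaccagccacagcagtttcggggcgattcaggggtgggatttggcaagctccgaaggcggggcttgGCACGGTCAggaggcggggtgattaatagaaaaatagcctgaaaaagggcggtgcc
Gsto1: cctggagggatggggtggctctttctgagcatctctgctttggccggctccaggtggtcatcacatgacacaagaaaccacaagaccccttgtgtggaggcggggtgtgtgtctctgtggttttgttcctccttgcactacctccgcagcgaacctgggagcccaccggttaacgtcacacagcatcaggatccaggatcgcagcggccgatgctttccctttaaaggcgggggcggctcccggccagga
Gstm2: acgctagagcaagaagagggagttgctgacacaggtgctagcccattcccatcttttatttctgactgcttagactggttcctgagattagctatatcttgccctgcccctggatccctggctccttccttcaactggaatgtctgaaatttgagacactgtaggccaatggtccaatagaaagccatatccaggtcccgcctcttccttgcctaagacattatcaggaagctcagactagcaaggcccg
Mgst3: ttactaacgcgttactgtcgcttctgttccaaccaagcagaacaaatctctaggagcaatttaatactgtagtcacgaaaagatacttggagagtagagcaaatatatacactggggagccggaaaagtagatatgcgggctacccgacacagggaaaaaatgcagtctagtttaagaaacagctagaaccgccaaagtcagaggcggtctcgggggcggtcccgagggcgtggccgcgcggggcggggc

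The core, searched as TGACNNNGC on both strands, matched at -56 to -48 of Mgst1 on the strand opposite to the gene, which is the run GCACGGTCA above. The other RefSeq promoter of Mgst1, at chr6:138141337-138141586, does not hold the core, and which of them these RNAs came from is not known. The core also matched in Gsta3, at -121 to -113, and in 10.2% of 32851 promoters of this length. The AP-1 site, searched as TGANTCA, matched in Mgst2 at -52 to -46 and in Gstp1 at -74 to -68, and in 6.75% of all promoters. The SF-1 site, searched as AAGGTCA, matched in 0 of the 11 promoters of members and in 4.08% of all. The matches ran across the sign groups, since Mgst1 was negative in all pairs and Gsta3, Mgst2 and Gstp1 had both signs.

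Of 18 further glutathione transferases, 14 were measured and 0 passed at either age, over all pairs or between the ages, with a median over all pairs of 0.03. Gstk1, the mitochondrial and peroxisomal kappa-class enzyme, had ratios of -1.04, -0.79 and -0.20 at 4 months and of 0.25, 0.23 and 0.27 at 10 days. Its pairs of 4 months were all negative and those of 10 days all positive, the reverse of the split of Mgst3, and the difference was -0.93 (SE 0.22, limma adjusted p = 0.933). Gstt3, of the theta class like Gstt1, was negative in all pairs, from -0.69 to -0.08, with a mean of -0.37 (SE 0.08, limma adjusted p = 0.104). Gstm6 at 0.12 and Gstm3 at 0.08 had the highest means over all pairs.

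Of 3 further MAPEG genes, the family of the microsomal members, 0 passed, and Ltc4s, a leukotriene synthase, ran from -1.70 in pair 3 to 1.42 in pair 15. Among 15 measured genes of glutathione synthesis, recycling and breakdown 0 passed, and 6 had a positive and 9 a negative mean over all pairs. Chac1, which degrades glutathione, had the lowest mean, -0.66 (SE 0.19, limma adjusted p = 0.181), and Ggt5 and Gclm the highest, at 0.21 and 0.12. None of the 12 glutathione peroxidases and glutaredoxins and none of the 15 measured genes of the thioredoxin system passed either. Srxn1, which repairs peroxiredoxins, averaged 0.79 ± 1.37 at 4 months and -0.78 ± 0.58 at 10 days (SD, n = 3 each).

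Of 18 tested genes of the Nrf2 list, the regulator of antioxidant genes and its targets, 0 passed, with 8 positive and 10 negative means over all pairs and a median of -0.02. Aox1, an aldehyde oxidase, had ratios of -0.24, -0.69 and -0.72 at 4 months and of -0.25, -0.36 and -0.51 at 10 days. It was negative in all pairs like Mgst1 and Gsto1, with a mean of -0.46 (SE 0.09, limma adjusted p = 0.0929). Nqo1, a quinone reductase, had the lowest mean of the list at 4 months, -0.67, and stood at -0.12 at 10 days.

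The genes whose ratios were most like those of Mgst1 over the 6 pairs, by Pearson correlation among 17047 genes, were Dmwd, Itgb2l, Trmt112, Bcor and Fam241a, at 0.98 to 0.99. Those most opposed were Myo9a, Helt, Tbc1d10c, Pyurf and Zfp593, at -1.00 to -0.99. For Mgst3 they were Hes2, Chrdl1, Retreg3, Ndufaf1 and Zfand1, at 0.98 to 1.00, and Ccdc34os, Cyp2e1, Olfr1109, Cfap410 and Lilrb4a, at -0.99 to -0.97. With only 6 points, which share the arrays and the dye orientations, 167 genes correlated above 0.9 with Mgst1 and 170 below -0.9, and 87 and 97 with Mgst3, so the order is a description. For Mgst1, each point at 10 days also includes a Cy3 array at the scanner limit or with a deposited ratio of exactly 1. Cyp2e1 is 1 of the 14 measured hepatocyte markers and had ratios of -0.45, -0.41 and -0.49 at 4 months and of 0.36, -0.01 and 0.25 at 10 days. The list as a whole did not follow it. Its medians were 0.13, 0.28 and -0.03 at 4 months and 1.00, 0.08 and 0.09 at 10 days, and the ages overlapped.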

How the data were processed

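Adrenal RNA of 6 transgenic and WT pairs was measured on 12 2-colour arrays, 2 per pair with the dyes exchanged. The authors deposited log2 ratios, 1 value for each spot. The base is set by the values: on the full-precision arrays 100% of spots gave whole-number quotients with base 2 (relative tolerance 1e-13) and at most 0.664% with base e or 10. No source used here states the authors' scanner, background correction or normalization. The values were not normalized: array medians were -0.68 to -0.22 with the transgenic sample in Cy3 and 0.74 to 1.50 with it in Cy5.

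Each array was corrected by loess (span 0.3) of the ratio on the recovered signal of the probe, taken as its 75th percentile across those full-precision arrays. This signal is too low where the readings shared a common factor, and how many probes this misplaced was not tested. The columns already ran 1 way within a pair: after the mean of each orientation was taken off, arrays of a pair correlated at 0.18 to 0.65 and arrays of other pairs at -0.31 to 0.14 over 22438 probes, so no sign was turned. All Cy3 arrays differ from all Cy5 arrays in the date that the labels' descriptions give, so dye and date cannot be told apart. Of the probes, 21082 had 1 gene symbol, 30 several and 4232 none. Values were averaged over probes of a gene and then over arrays of a pair, both of which were required, and features with at least 2 pairs in each age were fitted with limma 3.58.1 under R 4.3.3 (a mean per age, two-sided, Benjamini-Hochberg over all features, threshold 0.05). Sex was added for the female minus male difference, over the 20356 features with all 6 pairs. The procedure was tested on simulated data.

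The members and lists were chosen with earlier results of these data known. All members are named, and from the other lists the genes that passed or the 2 highest and 2 lowest in a comparison. Cell type markers other than those that passed were named after their values were seen. Probes of near-identical paralogs, such as Gstp1 and Gstp2, may share signal, which was not tested.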

Additional observations from a re-analysis of the deposited data

Results flagged for a closer look

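Mgst3 was singled out because all 3 pairs of 4 months had a positive ratio and all 3 pairs of 10 days a negative one. The difference of 4 months minus 10 days was 1.35, from means of 0.71 at 4 months and -0.64 at 10 days. It was not tested as a finding, since this split was among the values that led to the choice of the family. It was 1.07 on the Cy3 arrays and 1.63 on the Cy5 arrays, named by the dye of the transgenic mouse.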

How the results depend on the processing

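The comparisons rest on 6 pairs of unknown signal over background, and the processing decides how many features pass. Over all 6 pairs the number was 12 with the loess correction. It was 0 with arrays centred on their median, 0 with sex in the model, 0 without pairs 11, 15 and 3 (chosen after seeing the data), 1 in an ordinary linear model, 54 with each probe on its own, 5964 as deposited and 777 with the 12 arrays fitted and the pair as a random block, which counts the 2 arrays of a pair in part separately (consensus correlation 0.30). Leaving out a pair gave 0 (pair 1, 3, 13 or 15) to 15 (pair 5), with 4 without pair 11. Against 0 in the report, 4 months gave 2548 as deposited, 289 with the random block and 0 to 5 with a pair left out (5 without pair 5). For 10 days these were 18, 75 and 0 to 1 (1 without pair 11). The age difference gave 16 as deposited. The sex difference gave 83 as deposited, 1 in the ordinary model and 21 with the random block. The cause of these shifts was not tested.

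Of 608 member values under the alternatives, 567 kept their sign and side of the threshold. The 14 that then passed did so as deposited or with the random block, among them Gsto1 over all pairs (adjusted p = 0.00871 and 0.00211 in limma) and Gsta4 (0.00201 and 0.0111). Those of Mgst1 and Mgst3 are not read, since their ratios chose the family. The other 27 changed sign. With arrays centred, Mgst3 over all pairs became -0.084 and Gstm2 between the ages 0.057. As deposited, Gstm1 became 0.059 at 10 days and 0.22 over all pairs, and between the ages Gstm2 became 0.23 and Gstt1 0.067. Without pairs 11, 15 and 3, which leaves pair 13 alone at 10 days, Gstm1 became -0.11 at 4 months, 0.14 at 10 days, 0.014 over all pairs (the mean of the age means) and -0.25 between the ages, Gstp1 0.12 at 10 days and Gstm2 0.059 between the ages.

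With a pair left out in turn, the values at 4 months ran from -0.11 to 0.093 for Gstm1, from -0.60 to 0.030 for Gstp1 and from -0.14 to 0.43 for Gstt1. At 10 days they ran from -0.68 to 0.30 for Gsta3 and from -0.38 to 0.36 for Gstp1, and over all pairs from -0.041 to 0.11 for Mgst3 and from -0.34 to 0.026 for Gstp1. Between the ages they ran from -0.88 to 0.12 for Gsta3, from -0.10 to 0.49 for Gsta4, from -0.21 to 0.10 for Gstm2, from -0.66 to 0.084 for Gstp1, from -0.47 to 0.098 for Gstt1 and from -0.015 to 0.44 for Gsto1. The sign of Gsto1, Gsta4 and Gstm2 at each age and over all pairs did not turn under any alternative run, nor did that of Mgst1, or of Mgst3 at each age. Leaving out pairs could not turn these signs. Gsto1, Gsta4, Gstm2 and Mgst1 had 1 sign in 6 of 6 pairs, and Mgst3 had 1 sign within each age. Without spots at the scanner limit or with a ratio of exactly 1, Mgst1 gave no value. Each ratio compares a transgenic mouse with its littermate, but the ages could not be matched with each other, because the pairs of 4 months and 10 days share no replicate numbers.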
